A study of Mus musculus with 9 samples.

Results

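CHD7 peaks that lay between the promoter and the distal zone are described here. They are the regions of the deposited CHD7 list whose midpoint was over 1 kb and at most 10 kb from the nearest transcription start site (TSS), taken as the 5′ end of any transcript that GENCODE M21 gives for a protein-coding gene on mm10. There were 1044 such peaks of 3761 in the list, which is 27.8% (Wilson 95% confidence interval 26.4 to 29.2%). Of the others, 585 had their midpoint within 1 kb of a TSS, 1207 at 10 to 50 kb and 925 at over 50 kb.

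The list came from CUT&RUN in cardiac progenitor (CP) cells, which were wild type (WT) and had been differentiated from mouse embryonic stem cells for 5 days. The study made 9 libraries in 3 groups of 3 biological replicates, with an antibody to CHD7, with IgG as the control for peak calling, or from input DNA. A peak entered the list when it overlapped between at least 2 of the 3 CHD7 replicates, so the list is 1 value for the group and carries no spread between replicates. It gives a start and an end for each peak and neither a score nor a read count, so library depth and the strength of a peak are unknown, and the intervals below cover counting error over peaks only.

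CHD7 is an ATP-dependent chromatin remodelling enzyme of the chromodomain family, and loss of 1 copy of its gene causes CHARGE syndrome, in which heart defects are frequent. In CUT&RUN an antibody tethers a nuclease to chromatin, and the fragments it releases mark where the protein sat. A promoter surrounds the TSS and often lies in a CpG island, whereas enhancers lie upstream, downstream or in introns and hold short motifs for the transcription factors of a cell type. A nearest gene is only the closest annotated start, and no expression data were used to tie a peak to a gene.

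Sequences of 7 of these peaks are shown first because they lie near cardiac and signalling genes. Peaks near cardiac transcription factor genes were taken first and then those near signalling genes, each by the number of different motifs. The Mef2d window thus stands here with 1 motif. Each is the central 200 bp on the plus strand of GRCm38 (mm10), read from RefSeq's copy of the assembly, and capitals mark every match to the motifs searched. The first 5 lie nearest to genes of cardiac transcription factors. The Hopx window (chr5:77110354-77110553, 4668 bp downstream of the TSS in intron 1) held a HAND, a GC box and a GATA match. The Foxc2 window (chr8:121121009-121121208, 4937 bp downstream of the TSS) held a GATA match and a GC box. Both Meis1 windows lay upstream of the gene, at chr11:19020675-19020874 and chr11:19023039-19023238, and the Mef2d window at chr3:88177819-88178018 held a GC box. The signalling genes were Fgf15 (chr7:144888819-144889018) and Etv4 (chr11:101787460-101787659).
Hopx: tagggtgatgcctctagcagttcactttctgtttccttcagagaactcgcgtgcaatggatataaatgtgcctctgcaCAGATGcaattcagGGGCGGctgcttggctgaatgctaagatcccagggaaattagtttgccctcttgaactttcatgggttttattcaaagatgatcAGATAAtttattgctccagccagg
Foxc2: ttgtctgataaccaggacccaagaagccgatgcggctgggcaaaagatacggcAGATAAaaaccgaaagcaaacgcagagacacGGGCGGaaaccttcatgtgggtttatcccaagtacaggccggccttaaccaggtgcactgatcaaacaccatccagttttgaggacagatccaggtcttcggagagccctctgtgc
Meis1, nearer peak: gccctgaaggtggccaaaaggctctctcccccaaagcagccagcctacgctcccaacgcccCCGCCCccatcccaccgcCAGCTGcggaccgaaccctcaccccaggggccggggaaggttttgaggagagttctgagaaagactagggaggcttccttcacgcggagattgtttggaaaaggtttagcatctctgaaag
Meis1, farther peak: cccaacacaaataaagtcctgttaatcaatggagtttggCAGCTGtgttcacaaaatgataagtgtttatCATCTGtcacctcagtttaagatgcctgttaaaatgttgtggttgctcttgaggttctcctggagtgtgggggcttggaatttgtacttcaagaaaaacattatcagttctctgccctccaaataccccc
Mef2d: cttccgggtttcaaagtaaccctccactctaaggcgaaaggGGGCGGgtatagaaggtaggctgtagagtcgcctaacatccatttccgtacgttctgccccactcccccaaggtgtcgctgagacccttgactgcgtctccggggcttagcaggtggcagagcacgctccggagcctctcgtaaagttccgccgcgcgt
Fgf15: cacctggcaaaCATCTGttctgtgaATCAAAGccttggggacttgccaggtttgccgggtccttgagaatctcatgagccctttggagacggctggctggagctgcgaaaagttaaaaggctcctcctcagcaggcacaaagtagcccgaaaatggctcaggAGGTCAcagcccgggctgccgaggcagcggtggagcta
Etv4: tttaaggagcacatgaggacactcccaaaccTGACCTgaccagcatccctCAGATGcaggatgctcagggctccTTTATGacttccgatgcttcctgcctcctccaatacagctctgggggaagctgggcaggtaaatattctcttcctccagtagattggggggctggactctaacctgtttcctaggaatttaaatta
Only the Hopx and Foxc2 windows among these 7 held a GATA match, whereas GC boxes stood in 4 of them. These windows were chosen partly by their number of motifs, so the 2 counts do not describe the peaks as a whole. Over all 1044 peaks the order was the other way, with a GATA match in the central 200 bp of 115 and a GC box in 65. Among the 7 windows the nearer Meis1 window was the most GC-rich, at 60.5%, and the farther one the least, at 41.5%.

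The 1044 peaks were spread evenly over the 2 sides of the TSS and thinned out slowly with distance. There were 520 upstream and 524 downstream (50.2%, 47.2 to 53.2%), and the median distance was 4263 bp, with quartiles at 2469 and 6796 bp. In number, 192 lay over 1 and up to 2 kb away, 428 over 2 and up to 5 kb and 424 over 5 and up to 10 kb. Distance chose these peaks, so their density is given as a description. The zone from 1 to 10 kb holds 498 Mb or 18.8% of the sequenced genome, and had 2.10 peaks per Mb against 5.97 within 1 kb, 1.63 at 10 to 50 kb and 0.705 beyond 50 kb. Each kilobase from 1 to 10 kb on either side had more peaks per Mb than the 1.42 of the whole genome. The highest value in the zone was 2.71 per Mb at 2 to 3 kb upstream (92 peaks) and the lowest 1.59 at 9 to 10 kb downstream (33 peaks). The step at the promoter was larger than any within the zone, from 7.32 per Mb in the first kilobase upstream to 2.47 in the second. When only 1 TSS per gene was used, the share downstream was 55.6%.

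**Figure D1:**
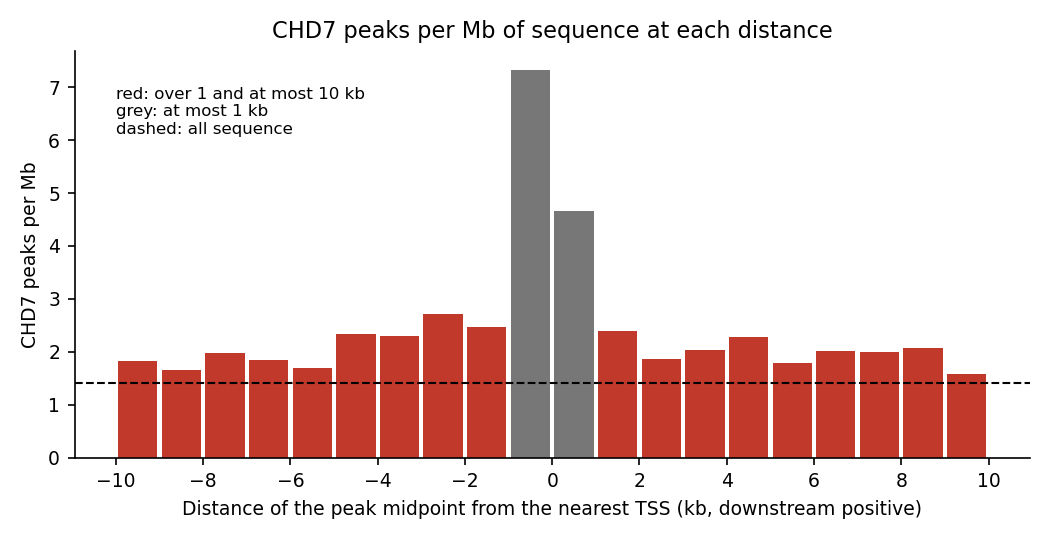
CHD7 peaks per Mb of sequence (bars) for each kilobase of distance between peak midpoint and nearest TSS, with upstream distances negative. Red bars, from 1 to 10 kb, run from 1.59 to 2.71 per Mb and all stand above the genome-wide 1.42 (dashed line), and the grey bars within 1 kb reach 7.32.

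The largest group of these peaks was intronic. At the midpoint, 632 peaks (60.5%, 57.5 to 63.5%) were in an intron of a protein-coding gene, 314 (30.1%) were outside protein-coding genes, 47 were in coding sequence, 39 in a UTR and 12 in an exon of a noncoding transcript. The intronic share was 34.5% within 1 kb, 46.8% at 10 to 50 kb and 28.8% beyond 50 kb. This order is bound up with the distance rule and was not tested. In 676 peaks (64.8%) the midpoint was inside the nearest gene itself, and in 54 it was inside another protein-coding gene only. Counted along 1 main transcript per gene, 195 peaks were in intron 1, 90 in intron 2 and 273 in a later intron, so the first intron was not where most of the intronic peaks lay.

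Many of these peaks were near a TSS other than that of the main transcript. The nearest TSS belonged to a transcript annotated as protein_coding for 606 of the 1044 peaks (58.0%), to retained_intron transcripts alone for 215 and to processed_transcript transcripts alone for 175. Measured from 1 main TSS per gene, 629 peaks were still 1 to 10 kb away, 302 were at 10 to 50 kb and 113 at over 50 kb. The 415 that moved out by this measure had a median width of 684 bp and a median CpG ratio of 0.191, next to 696 bp and 0.204 for the 629 that stayed. An example is the Nrg1 peak on chr8:32875020-32875464, which was 8621 bp from its nearest TSS but 510286 bp from the main one, and another is the Ryr2 peak on chr13:11639077-11639783 in intron 78, at 7113 and 467516 bp. Nrg1 encodes neuregulin, a ligand of the ERBB receptors, and Ryr2 the calcium release channel of the cardiac sarcoplasmic reticulum. Peaks named below that were also over 10 kb from the nearest main TSS include those of Rxra, Ncor1, Smad1, Gata6, Chd6, Fbln1 and Arid3b.

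At the near limit, just inside the zone, were the peaks of Tenm4 at 1003 bp and Lpcat4 at 1007 bp, and just outside it were those of Myh10 at 999 bp and Acsl3 at 994 bp. At the far limit Prcd at 9963 bp and Aldh18a1 at 9940 bp were inside, and B230219D22Rik at 10006 bp and Fabp1 at 10012 bp were outside.

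Few of these peaks sat on the promoter of a noncoding gene. The midpoint was within 1 kb of the TSS of a noncoding gene in 28 of 1044 peaks (2.68%, 1.86 to 3.85%), against 10.9% of the peaks within 1 kb of a protein-coding TSS, 2.07% at 10 to 50 kb and 1.84% beyond. Of the 28 noncoding genes, 12 were lincRNAs and 11 antisense genes. The widest of the 28 peaks was at chr17:12739940-12742947 and its midpoint was 45 bp from the TSS of Airn, the antisense RNA of the imprinted Igf2r locus. This 3008 bp peak lay in intron 2 of Igf2r, which encodes the receptor that clears IGF2, and was 9357 bp downstream of the nearest protein-coding TSS. The Mef2d peak shown above was 133 bp from the TSS of 1700113A16Rik and the Kcnj5 peak on chr9:32348132-32348788 was 223 bp from that of Gm39317. These peaks would be counted as promoter peaks if noncoding genes were included.

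Peaks from 1 to 10 kb were narrower than those at promoters, and no difference in width from those at 10 to 50 kb passed the test. Widths ran from 246 to 3419 bp with a median of 693 bp and quartiles of 531 and 1048 bp. Of the 1044, 508 (48.7%, 45.6 to 51.7%) were wider than 703 bp, the median of the whole list, against 357 of 585 (61.0%, 57.0 to 64.9%) within 1 kb. This difference of -12.4 percentage points (95% interval -17.3 to -7.34) passed the test (2-sided Fisher's exact test, adjusted p = 3.73e-06). Against the peaks at 10 to 50 kb, of which 601 of 1207 (49.8%) were wider than 703 bp, the difference was -1.13 points (-5.26 to 3.0, adjusted p = 0.612, Fisher's exact test). Both p-values are adjusted by Benjamini-Hochberg over 6 comparisons and treat peaks as independent. Within the zone the median width was 680 bp at 1 to 2 kb, 745 bp at 2 to 3 kb, 705 bp at 3 to 5 kb, 682 bp at 5 to 7 kb and 688 bp at 7 to 10 kb.

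The widest of the 1044 peaks was on chr7:98126686-98130104, 3419 bp wide, with Myo7a as its nearest gene, 8870 bp away, and its midpoint in an intron of Capn5. The next were the peaks of Kif23 (3377 bp), Fam120a (3192 bp), Stk25 (3092 bp) and the Igf2r peak described above. The narrowest was in coding sequence of Col6a3, a collagen VI chain, at chr1:90775643-90775888 and 246 bp wide, followed by the peaks of Dus3l (366 bp) and Mroh8 (376 bp). The 5 widest had 1 or 2 GATA matches each over the whole peak, and their central windows held at most 1 motif.

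CpG-rich sequence was rare in these peaks. A window of 500 bp at the midpoint was called CpG-rich when its GC content was at least 50% and its ratio of observed to expected CpG at least 0.6. This held for 17 of 1044 peaks (1.63%, 1.02 to 2.59%) and for 242 of 585 peaks (41.4%, 37.4 to 45.4%) within 1 kb, a difference of -39.7 points (-43.8 to -35.7, adjusted p = 1.05e-100, 2-sided Fisher's exact test). At 10 to 50 kb it held for 6 of 1207 (0.497%), which was lower by 1.13 points (0.288 to 2.13, adjusted p = 0.0155, Fisher's exact test). This second difference no longer passed when TSSs of noncoding genes were included, at 0.639 points (adjusted p = 0.127, Fisher's exact test). Sequence outside peaks at the same distances from a TSS was not compared. Whether these contrasts, or those in repeats and motifs below, are particular to CHD7 peaks was therefore not tested. The median CpG ratio was 0.199, next to 0.549 within 1 kb and 0.191 at 10 to 50 kb, and the zone held 5 CpG-rich peaks of 192 at 1 to 2 kb, 1 of 159 at 2 to 3 kb, 6 of 269 at 3 to 5 kb, 1 of 186 at 5 to 7 kb and 4 of 238 at 7 to 10 kb. Among the peaks of the listed genes the CpG-rich ones were the nearer Meis1 peak, with a ratio of 0.644, the Mef2d peak at 0.812, and the Sema3b peak on chr9:107611609-107613552 at 0.610.

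GC content rose at the midpoint of these peaks, though far less than at promoters. The mean over 100 bp bins was 48.8% at its highest, against 46.8% at 1950 bp upstream and 47.0% at 1950 bp downstream on the plus strand. Peaks at 10 to 50 kb rose too, to 47.3% at the highest, against 44.9 and 45.1% at the same positions. Repeats were more frequent than at promoters. Over 50% of the bases were repeat-masked in 89 of 1044 peaks (8.52%, 6.98 to 10.4%), in 7 of 585 within 1 kb (1.20%) and in 90 of 1207 at 10 to 50 kb (7.46%). The first difference was 7.33 points (5.34 to 9.28, adjusted p = 1.18e-10) and the second 1.07 points (-1.17 to 3.36, adjusted p = 0.420), both by 2-sided Fisher's exact test. Among the named peaks the Rpl11 peak was masked over 91.0% of its bases and the Mef2a peak over 85.3%, and uniqueness of the reads in such regions was not tested.

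**Figure D2:**
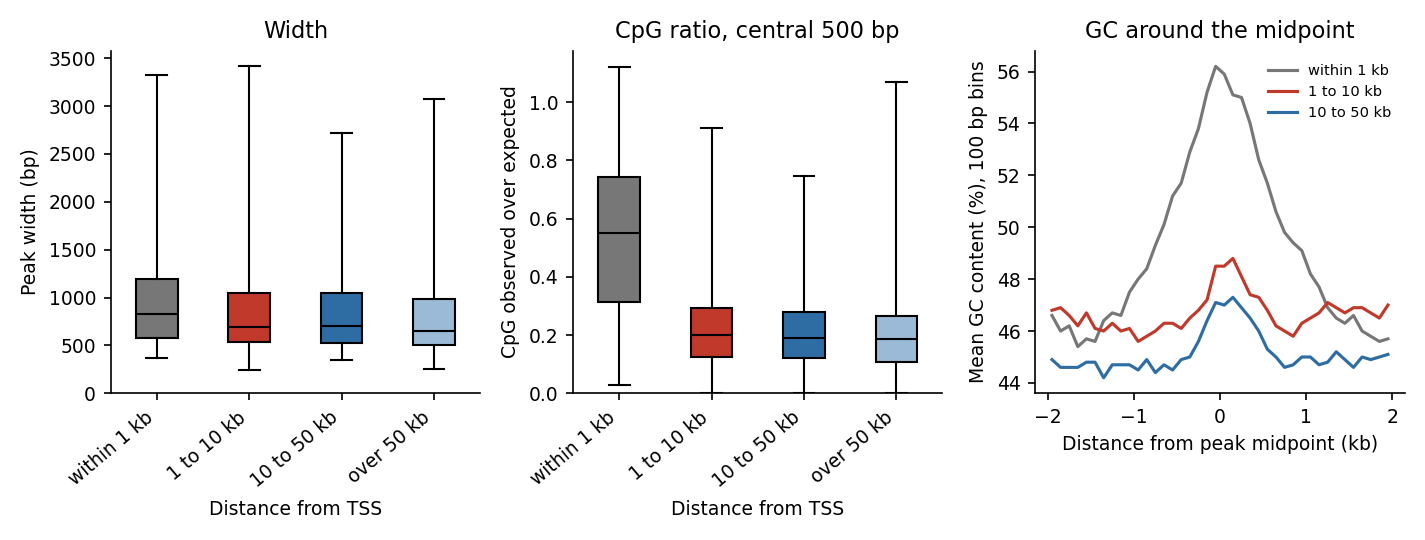
Peak width in bp (left) and CpG observed over expected in the central 500 bp (centre) by distance from the TSS, where boxes span the quartiles, lines mark the median and whiskers reach the lowest and highest value. At right, mean GC content in 100 bp bins around the midpoint (axis not from 0) peaks at 48.8% for 1 to 10 kb, below the grey line of the peaks within 1 kb, and the CpG medians are 0.199 and 0.549.

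Motifs were searched as fixed strings on both strands in the central 200 bp, so a match is a string and not a bound site. The midpoint need not be the summit, which the list does not give. The strings were AGATAA for GATA factors, GGGCGG for the GC box of SP and KLF factors, CATCTG for HAND and related bHLH factors, CAGCTG for the E-box, TGTTTAC for forkhead (FOX) factors and CCGGAAGT for ETS factors. CATAAA was used for caudal and posterior HOX factors, CACTNAA for NKX2-5, CATTCC for TEAD, AGGTCA for nuclear receptors, ATCAAAG for TCF and LEF, TGACTCA for AP-1, CCACACCC for the CACCC box, AGGTGTGA for T-box factors and ATTTGCAT for OCT. CTCF had CNAGGTGGC or CNAGGGGGC, ISL1 had CTAATTG or CTAATGG, SOX had CCATTGT or CCTTTGT, and MEF2 was searched by its consensus. No string contained that of another motif, and the most frequent overlaps of matches, nuclear receptor with E-box or with HAND, occurred in 4 peaks each. In 280 peaks (26.8%) no motif was found, in 389 there was 1, in 261 there were 2, and 1 peak held 6 different motifs.

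Of the 19 motifs, 4 differed between these peaks and the peaks within 1 kb, and 2 differed from the peaks at 10 to 50 kb (2-sided Fisher's exact test, Benjamini-Hochberg over 38 comparisons). Without adjustment 8 and 3 had p under 0.05. The GC box was in 65 of 1044 peaks (6.23%, 4.91 to 7.86%), in 178 of 585 (30.4%) within 1 kb and in 45 of 1207 (3.73%) at 10 to 50 kb, with 8.69% in all peaks, and adjusted p was 3.26e-36 and 0.0498. The peaks thus had fewer GC boxes than promoters and, close to the threshold, more than the next zone, and the second call was lost in 4 of 8 alternatives, namely windows of 100 bp (adjusted p = 0.139, Fisher's exact test), the whole peak (0.119), TSSs of all genes (0.701) and windows of 45 to 55% GC (1.0). The ETS string was in 2 peaks (0.192%) against 12 (2.05%) within 1 kb (adjusted p = 0.00223, 0.532% of all peaks, Fisher's exact test), and in 4 (0.331%) at 10 to 50 kb (adjusted p = 0.867). In windows of 100 bp the ETS call against promoters was lost (adjusted p = 0.0537, Fisher's exact test).

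HAND and GATA matches were more frequent from 1 to 10 kb than at promoters. CATCTG was in 191 peaks (18.3%, 16.1 to 20.8%), in 56 (9.57%) within 1 kb and in 220 (18.2%) at 10 to 50 kb, with 16.4% in all peaks, and adjusted p was 3.33e-05 and 1.0. AGATAA was in 115 peaks (11%, 9.26 to 13.1%), in 38 (6.50%) within 1 kb and in 161 (13.3%) at 10 to 50 kb, with 11.8% in all peaks, and adjusted p was 0.0194 and 0.276. Base composition moved with these values, and in windows of 45 to 55% GC only the GATA shares were 8.20 and 8.08% (adjusted p = 1.0, Fisher's exact test) and the HAND shares 19.4 and 13.6% (adjusted p = 0.567), the ETS shares 0.178 and 0.505% (adjusted p = 1.0), while the GC box kept its call with a smaller difference, of -13.1 in place of -24.2 percentage points, at 4.10 and 17.2% (adjusted p = 1.50e-06). The GATA call was also lost with 1 TSS per gene, at 9.31 and 4.82% (adjusted p = 0.0545, Fisher's exact test), and with TSSs of protein_coding transcripts only, at 10.1 and 6.52% (adjusted p = 0.119). Within the zone the GATA share was 6.25% (3.61 to 10.6%) of the 192 peaks at 1 to 2 kb, 11.9% (9.18 to 15.3%) at 2 to 5 kb and 12.3% (9.48 to 15.7%) at 5 to 10 kb. The GC box went the other way, at 8.33%, 6.78% and 4.72%, with intervals that overlap. GATA matches per kb were also counted in 100 bp bins around the midpoint, without a test. In the peaks at 1 to 10 kb the central bins had 0.690 and 0.584, within the 0.450 to 0.709 of bins over 1 kb from the midpoint. In the promoter peaks the central bins had 0.342 and 0.376, next to 0.342 to 0.769 in such flanking bins.

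The forkhead string was the only motif besides the GC box that separated these peaks from those at 10 to 50 kb. TGTTTAC was in 45 peaks (4.31%, 3.24 to 5.72%) and in 24 of 1207 (1.99%) at 10 to 50 kb (adjusted p = 0.0187, Fisher's exact test), with 2.22% within 1 kb (adjusted p = 0.123) and 3.11% in all peaks. The share was 3.65% at 1 to 2 kb, 4.21% at 2 to 5 kb and 4.72% at 5 to 10 kb. The call was lost in 6 of 8 alternatives. With windows of 100 bp the shares were 2.20 and 0.994% (adjusted p = 0.139, Fisher's exact test), with 400 bp 7.76 and 5.22% (adjusted p = 0.0535) and with the whole peak 13.5 and 11.2% (adjusted p = 0.254). With 1 TSS per gene they were 4.37 and 2.41% (adjusted p = 0.0893, Fisher's exact test), with TSSs of all genes 3.73 and 2.56% (adjusted p = 0.320) and in windows of 45 to 55% GC 4.10 and 2.42% (adjusted p = 0.567). ISL1 strings were in 26 peaks (2.49%), next to 2.56% within 1 kb and 3.65% at 10 to 50 kb, and TEAD, NKX2-5 and SOX strings in 11.6, 12.1 and 7.38%, all without a difference that passed the test.

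**Figure D3:**
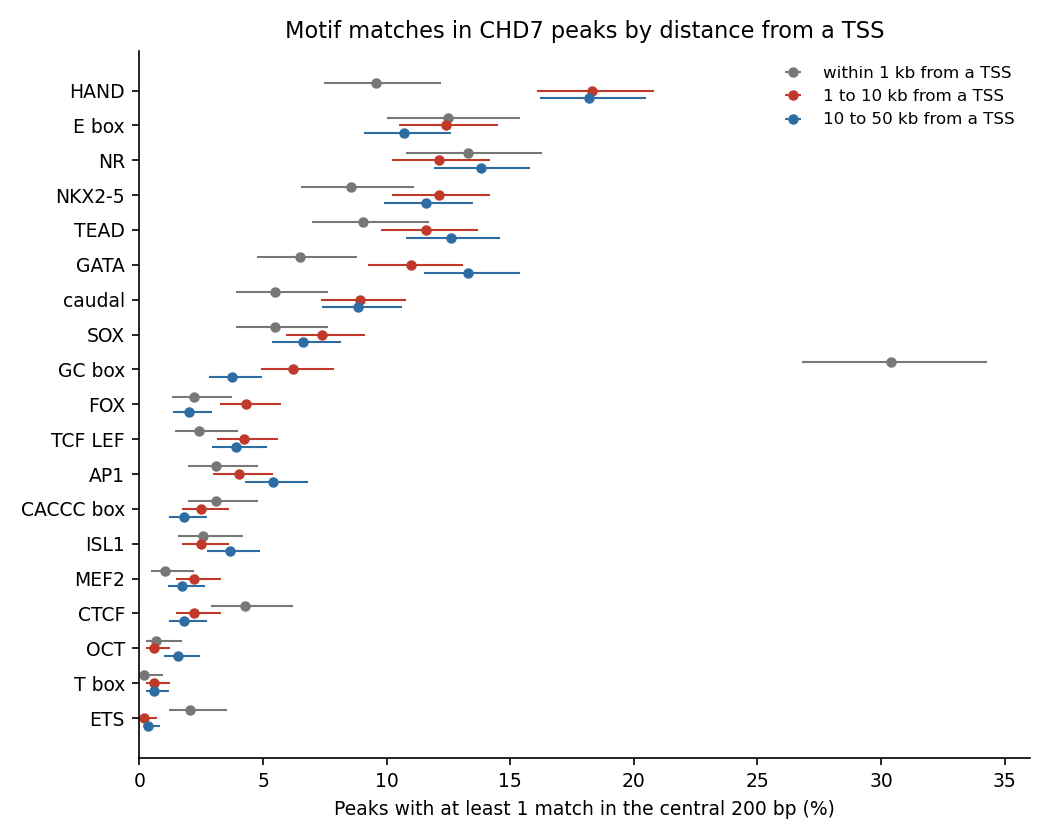
Share of peaks in percent (horizontal axis) with at least 1 match to each of 19 motifs (rows) in the central 200 bp, with Wilson 95% intervals, for peaks within 1 kb (grey), at 1 to 10 kb (red) and at 10 to 50 kb (blue) of a TSS. The GC box stands at 6.23% in red and 30.4% in grey, and HAND at 18.3% in red and 9.57% in grey.

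Of the 5 peaks with the most GATA matches over their whole length, 1 was near a listed gene. The Msrb3 peak on chr10:120902990-120905018 had 5 matches in 2029 bp, none of them in the central 200 bp. Those of Olfr140, Itpr1, Lpin2 and Erc2 had 4 each. The Itpr1 peak, on chr6:108259540-108260472 in intron 4, was that one, and it had 4.29 matches per kb. Itpr1 encodes an IP3 receptor that releases calcium from internal stores. The Olfr140 peak was the densest of the 5, at 5.52 per kb.

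The 1044 peaks were nearest to 990 of the 21938 protein-coding genes (4.51%), which is the background for the gene lists that follow. Of these genes 943 had 1 such peak, 40 had 2 and 7 had 3, and 39 also had a peak within 1 kb of a TSS. Of the 669 genes in 18 lists of heart development, signalling, structure and reference genes, 66 (9.87%, 7.83 to 12.4%) were nearest to 1 of 73 peaks. In 14 lists the share was above 4.51% and in 4 it was below. Of the 14, the BMP and TGF-beta, Notch, HOX, matrix, guidance, chromatin, pluripotency and ribosomal lists had Wilson intervals that hold 4.51%. The lists were chosen with earlier results of these data known and genes differ in how much sequence lies nearest to them, so the shares are descriptions without a test. Per Mb of that sequence, the HOX list had the densest peaks at 13.9 (5 peaks in 0.360 Mb), next to 2.10 for all genes. The WNT list had the sparsest at 0.716 (1 peak in 1.40 Mb). Ribosomal protein genes, a reference list, had 7.53, so a density above that of all genes was not limited to developmental lists. The ion channel, sarcomere and cardiac transcription factor lists were below this reference, at 5.66, 5.56 and 4.71. Among the 66 listed genes with such a peak, 3 also had a peak within 1 kb of a TSS, namely Tpm1, Spi1 and Hoxc9. Over all genes it was 39 of the 990. From the nearest of 1 main TSS per gene these 3 peaks were 4952, 12125 and 1244 bp away, and none was CpG-rich. That of Tpm1, which encodes tropomyosin 1, had its midpoint 492 bp from a TSS. The other Tpm1 peak, on chr9:67046289-67047162, was 2393 bp downstream in intron 2 with 3 GATA matches.

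**Figure D4:**
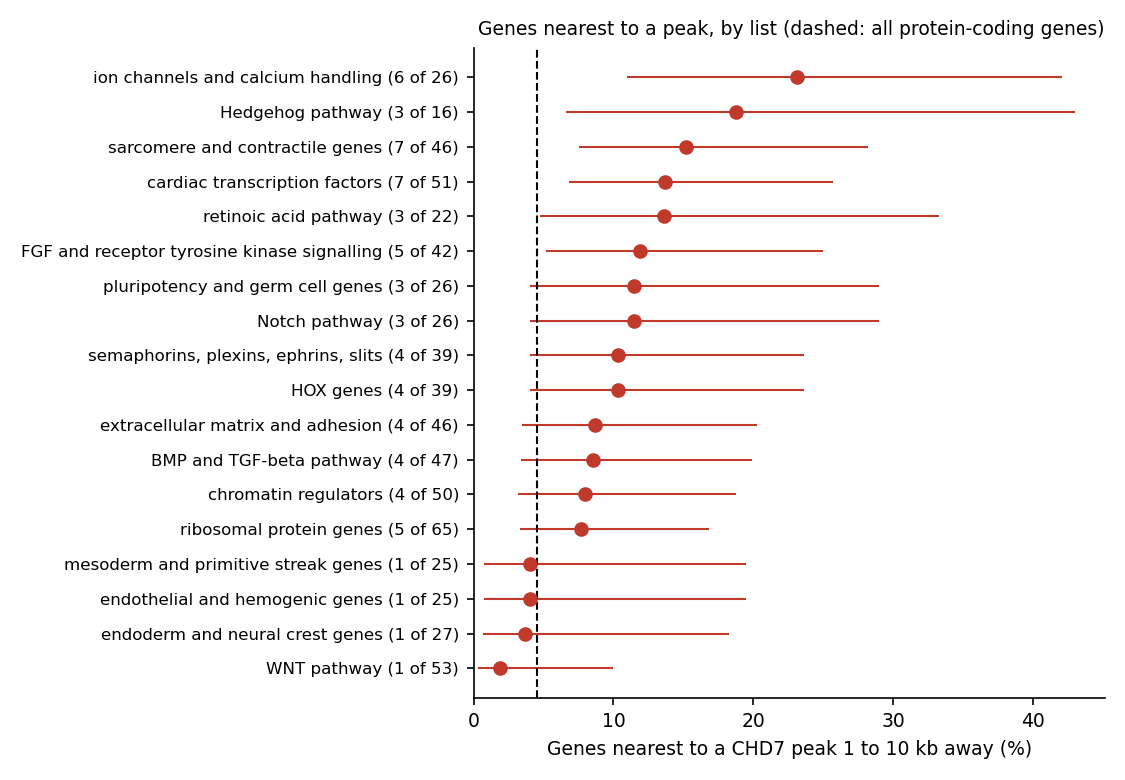
Share of the genes of each list in percent (points, with Wilson 95% intervals) that are nearest to at least 1 CHD7 peak 1 to 10 kb away, with the number of genes in brackets. The dashed line marks the 4.51% of all protein-coding genes, and ion channels and calcium handling (6 of 26) stand highest and the WNT pathway (1 of 53) lowest.

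In the list of cardiac transcription factors 7 of 51 genes (13.7%, 6.81 to 25.7%) were nearest to 8 such peaks. None of the 7 had a peak within 1 kb, and over all genes only 39 of the 990 with such a peak did. Meis1, a TALE homeobox factor, had 2 upstream peaks, on chr11:19020274-19021275 (1789 bp away, 1002 bp wide) and chr11:19022702-19023575 (4153 bp away, 874 bp wide). They were 2364 bp apart and unlike in base composition, with 54.6 and 39.4% GC in the central 500 bp. Foxc2, a forkhead factor of mesoderm and vessels, had the widest peak of the list, at chr8:121119915-121122303 and 2389 bp wide, with 2 GATA matches. The remaining 5 peaks lay downstream of the TSS. That of Mef2a, a MADS-box factor, was on chr7:67366037-67367169, in intron 1 at 6225 bp. The Hopx peak, nearest to an atypical homeodomain gene of cardiac progenitors, spanned chr5:77110190-77110717. The Gata4 peak on chr14:63241336-63241850 was 3656 bp downstream, in an annotated UTR, and was 515 bp wide with no GATA match over its length. The Gata6 peak was 6012 bp downstream, in intron 6 of the main transcript, and 406 bp wide, also with no GATA match. The Mef2d peak spanned chr3:88177694-88178144 and was 35346 bp from the main TSS of Mef2d. These peaks ranged from 406 to 2389 bp in width, and those of the GATA genes were among the 3 narrowest.

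Receptors and effectors of BMP and TGF-beta signalling accounted for 4 of 47 genes (8.51%). The peak of Bmpr2, a type II BMP receptor, was on chr1:59771132-59771899 in intron 1, 8115 bp downstream, and that of Eng, the co-receptor endoglin, was on chr2:32655325-32656186 in intron 1, 8762 bp downstream. Smad1, the transcriptional effector of BMP receptors, had a peak in its intron 2 on chr8:79358976-79359475, with a GATA and a TEAD match in the window and 4.0 GATA matches per kb over its 500 bp. Smurf1, a ubiquitin ligase that acts on SMAD proteins, had a 1206 bp peak with 3 GATA matches in intron 1, 1916 bp downstream. So all 4 were intronic.

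The FGF and receptor tyrosine kinase list had 5 of 42 genes (11.9%). Fgf15, a ligand with a role in outflow tract development, had a peak 7613 bp upstream on chr7:144888622-144889216, and Etv4, an ETS factor induced by FGF signals, had one 2188 bp upstream on chr11:101787276-101787843. Both were outside genes and both windows held 3 different motifs, HAND and nuclear receptor matches in each, with TCF/LEF in Fgf15 and caudal in Etv4. Flt1, a VEGF receptor gene, had a 723 bp peak 86973 bp from its main TSS, and Igf2r and Nrg1 are described above.

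In the retinoic acid list 3 of 22 genes (13.6%) had 4 peaks. Rxra, which encodes the shared partner of retinoic acid receptors, had 2 in intron 1, on chr2:27699358-27699899 and chr2:27702871-27703835, 3724 bp apart. These 2 peaks were 22427 and 26151 bp from the nearest main TSS. Both held a HAND match and the second also a GATA match. Ncor1, a corepressor of nuclear receptors, had a peak in intron 1 at 4072 bp, and Rdh10, which oxidises retinol in the first step of retinoic acid synthesis, had one 30919 bp from its main TSS with a nuclear receptor match. Of the Notch list 3 of 26 genes (11.5%) had a peak. They included Notch2, a receptor gene, with the peak 6125 bp upstream, and Rfng, a fringe glycosyltransferase gene, at 8018 bp downstream.

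In the Hedgehog list 3 of 16 genes (18.8%, 6.59 to 43.0%) had a peak. Among them were the co-receptor genes Boc and Gas1. The Boc peak was in intron 1 on chr16:44549889-44551041, 8433 bp downstream and 1153 bp wide, and the Gas1 peak was 1543 bp downstream in an annotated UTR. In the WNT list 1 of 53 genes (1.89%, 0.334 to 9.94%) had a peak, an interval that holds the 4.51% of all genes. This gene was Tcf7, a TCF factor, with a 529 bp peak in intron 2 at 1744 bp. Ctnnbip1 and Adgra2, named below for their number of peaks, were not counted in this list. Of the 25 mesoderm and primitive streak genes only Cdx2, a caudal factor, had one, a 684 bp peak at 6236 bp that had 2 GATA matches.

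**Figure D5:**
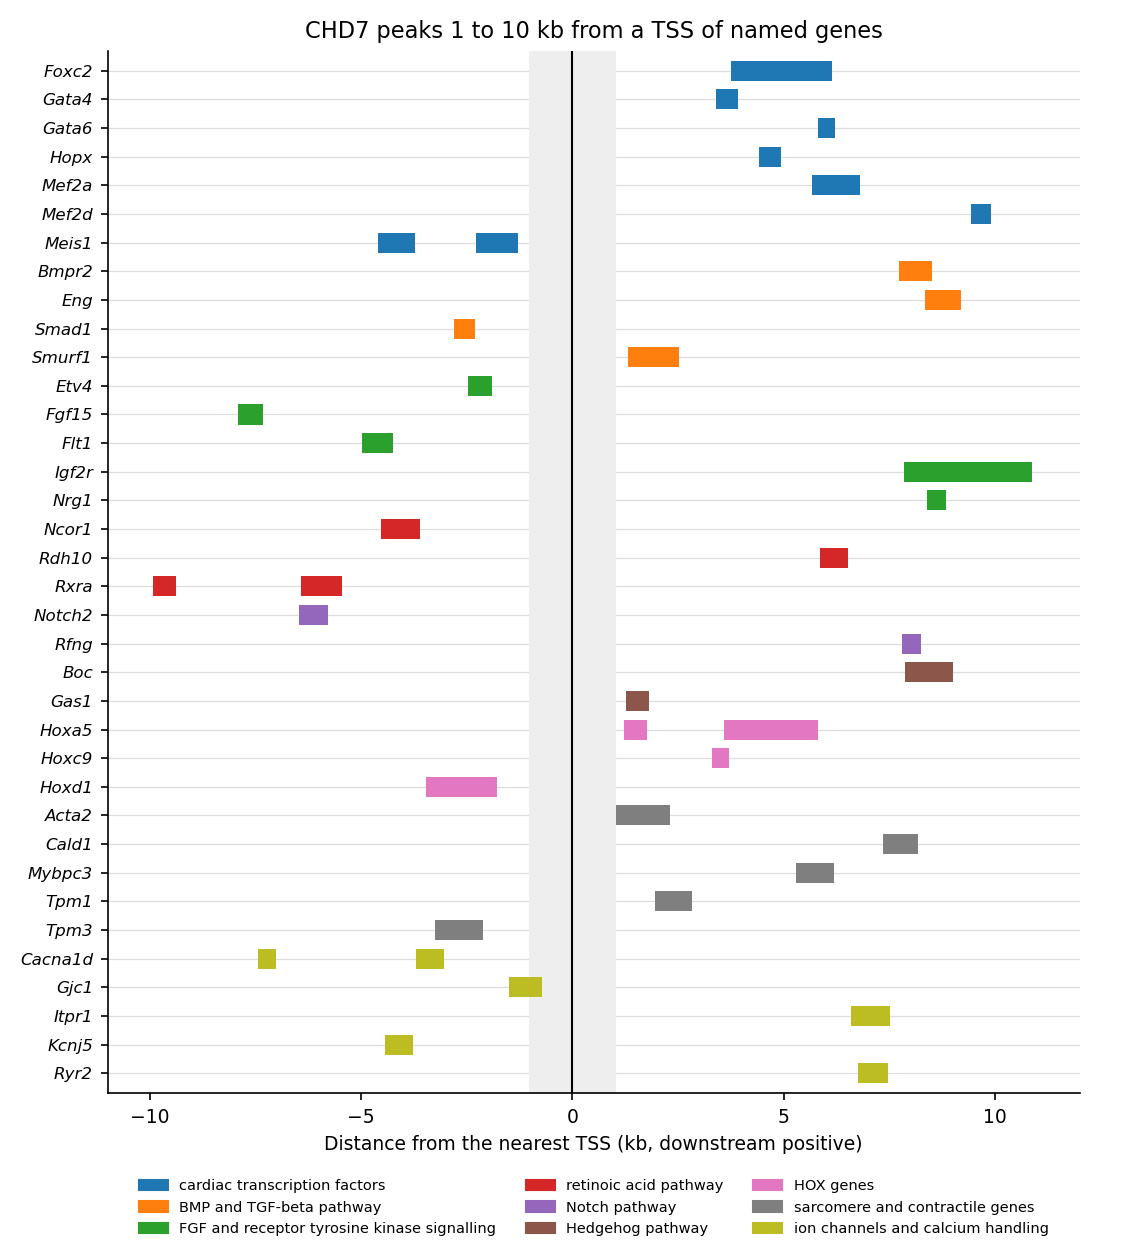
CHD7 peaks drawn to scale (bars from start to end) at their distance in kb from the nearest TSS, upstream negative, for genes of 9 lists given by colour. The cardiac transcription factor peaks lie downstream except the 2 of Meis1, and all BMP and TGF-beta peaks except that of Smad1 also lie downstream; grey shading marks 1 kb on either side of the TSS.

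Of the 39 HOX genes, 4 (10.3%) had 5 peaks. HOX factors give cells their position along the body axis, and the anterior ones mark progenitors of the posterior heart field. The 2 peaks of Hoxa5 were on chr6:52198771-52200994, 2224 bp wide, and chr6:52202825-52203379, whose window held a GC box and CTCF, NKX2-5 and nuclear receptor matches. The Hoxd1 peak on chr2:74759512-74761190 was 2630 bp upstream and 1679 bp wide. The Hoxc9 peak was the narrowest of the 5 at 389 bp, and the Hoxc9 peak within 1 kb of a TSS was 4751 bp from it.

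In the sarcomere and contractile list 7 of 46 genes (15.2%, 7.57 to 28.2%) had 1 peak each. Besides Tpm1 these included Acta2, the smooth muscle actin gene, with a 1283 bp peak 1673 bp downstream on chr19:34251917-34253199, and Tpm3, another tropomyosin gene, with a 1138 bp peak in intron 2. Mybpc3, which encodes cardiac myosin binding protein C, had a peak in intron 12 on chr2:91123425-91124341, 5738 bp downstream, and Cald1, the caldesmon gene, had one 63042 bp from its main TSS. In the ion channel and calcium handling list 6 of 26 genes (23.1%, 11 to 42.1%) had 7 peaks. Cacna1d, an L-type calcium channel gene, had 2, in introns 1 and 5 of the main transcript and 174239 bp apart. Gjc1, the connexin 45 gene, had a peak 1119 bp upstream of a TSS and 15477 bp from the main one, and Kcnj5, a potassium channel gene, had one 4109 bp upstream. Itpr1 and Ryr2 are described above. Of the 5 ion channel genes named, 4 reached the zone only through a TSS other than the main one, with Kcnj5 as the exception.

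Genes of matrix, guidance, chromatin and pluripotency had shares of 8.0 to 11.5%. Their intervals began at 3.15 to 4.06% and each holds the 4.51% of all genes. In the matrix and adhesion list (4 of 46, 8.70%) Col18a1 had 2 peaks, Fbln1 a 2149 bp peak in intron 16 on chr15:85272183-85274331, and Mmp14, a membrane-bound metalloproteinase gene, a 413 bp peak with 2 GATA matches. In the guidance list (4 of 39, 10.3%) Sema3b had 2 upstream peaks 2282 bp apart. Sema3f had a peak inside the gene, in intron 11, 1167 bp upstream of a TSS and 6252 bp from the nearest main one. Sema4d had one in intron 1. Nrp1, the neuropilin receptor of class 3 semaphorins, had a 1598 bp peak in intron 1 on chr8:128361679-128363276 with 3 GATA matches. Among chromatin regulators (4 of 50, 8.0%) Ehmt1, a histone H3 lysine 9 methyltransferase, had 2 intronic peaks, and Chd6, a remodeller of the same family as CHD7, had a 1501 bp peak in intron 27. Hdac2 and Cbx7, a deacetylase and a Polycomb gene, had 1 each. In the pluripotency and germ cell list (3 of 26, 11.5%) the Nanog peak on chr6:122702347-122702924 was 4854 bp upstream, the Myc peak was in coding sequence 2116 bp downstream and the Dnmt3a peak was 43044 bp from the main TSS. Ribosomal protein genes, a reference list, had 5 of 65 (7.69%), among them Rpl3, Rpl13, Rpl21 and Rpl11. Spi1, a haematopoietic ETS factor, and Ngfr, a neural crest receptor gene, were the only genes of the endothelial and hemogenic list (1 of 25) and of the endoderm and neural crest list (1 of 27).

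Several of the genes with the most peaks from 1 to 10 kb had them in a row within introns. Arid3b, an ARID-domain factor, had 3 in intron 2, on chr9:57811606-57812890, chr9:57813526-57816156 and chr9:57817330-57819122, which were 1285, 2631 and 1793 bp wide and lay 2593 and 3385 bp apart. Tanc1, Gm973, Ctnnbip1, Adgra2 and Ddc also had 3, and with Arid3b are 6 of the 7 such genes. Ctnnbip1 encodes an inhibitor of beta-catenin and TCF interaction, and its peaks were upstream, in intron 1 and in coding sequence, at 2452, 6040 and 1360 bp from the nearest TSS. In Adgra2, a receptor gene of endothelial WNT7 signalling, the 2 peaks of intron 2 were 1355 bp apart. Ddc, which encodes the decarboxylase of dopamine and serotonin synthesis, had peaks in introns 2, 4 and 9. Close neighbours were rare: 69 of the 1044 peaks (6.61%, 5.26 to 8.28%) had another CHD7 peak within 10 kb, next to 6.84% of those within 1 kb, 4.47% at 10 to 50 kb and 5.41% beyond.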

How the data were processed

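CUT&RUN was done in CP cells at day 5 with an antibody to CHD7 or IgG, beside input, in 3 biological replicates each. The authors trimmed reads with fastp (0.20.1), aligned them to mm10 with BWA (0.7.17.4), removed duplicates by molecular identifier, called peaks per sample with MACS2 (2.1.2) against IgG and kept those overlapping in at least 2 replicates. Versions are from the submitters' processing notes. The deposited values are peak positions in bp. The calling threshold is not given in the sources used here, and reads, IgG and input were not analysed here.

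Midpoints were set against TSSs of GENCODE M21, and sequence was read from GRCm38.p6 with pysam (0.24.0). Starts were read as counted from 0 and are printed as counted from 1. Classes were compared by Fisher's exact test (scipy 1.17.1) with Wilson and Newcombe intervals. Distances, motif search and tests were checked on simulated data. Named genes were, for each list, up to 5 nearest genes by number and width of peaks (all for cardiac transcription factors), the 6 genes with most peaks, the 5 widest and 3 narrowest peaks, 2 on each side of each limit, the 5 with most GATA matches and listed genes with a promoter peak. Members and lists were chosen with earlier results of these data known. All 669 list genes matched the annotation. Some genes that this rule selects are not reported here. Alternatives were other TSS sets, the nearest peak edge, narrower distance ranges, joined or thinned peaks, other windows and other thresholds.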

Additional observations from a re-analysis of the deposited data

How the results depend on the processing

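Of 130 recomputed values, 90 were called unchanged. Tested values had to keep their direction and side of the threshold, and counts had to stay within 1.5 times. Shares and densities without a test had to stay inside the 95% interval of the main value. No paired analysis was possible because the deposited list pools the replicates, and for the same reason no replicate could be left out. The share of wide peaks against those at 10 to 50 kb, which did not pass the test, turned to 0.790 points with 1 TSS per gene, 1.82 with protein_coding transcripts, 1.33 with all genes and 0.0104 with the upper quartile of width. The CpG-rich difference from 10 to 50 kb lost its call in Fisher's exact test with TSSs of all genes (0.639 points, adjusted p = 0.127), with the nearest peak edge (0.919, adjusted p = 0.0594) and at 5 to 10 kb alone (0.682, adjusted p = 0.25), and its adjusted p ran from 9.20e-04 to 0.25 over the alternatives. The number of motifs that differed from promoters, 4, became 9 with 400 bp windows and 1 in windows of 45 to 55% GC. The 2 that differed from 10 to 50 kb became 0 with 100 bp windows, the whole peak, TSSs of all genes or 45 to 55% GC, and 1, the GC box, with 400 bp windows or 1 TSS per gene, where the forkhead call was lost. The cause was not tested. The zone held 620 peaks up to 5 kb and 424 beyond, and between 709 and 1448 under the other settings, with 693 to 1394 nearest genes. The lower CpG share and width than at promoters passed in all their alternatives. With no scores or reads, strong and weak peaks could not be separated.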
